A study of Drosophila melanogaster with 3 samples.

Results

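The genes vri (FBgn0016076, vrille) and Pdp1 (FBgn0016694, PAR-domain protein 1) encode bZIP transcription factors that form the second feedback loop of the Drosophila circadian clock. Both genes were taken by name, and every Cycle-GFP peak whose summit lay in the gene body or within 5 kb of it was collected. This gave 17 of the 7227 peaks of the list thresholded by the irreproducible discovery rate, and 50 of the 29484 peaks of the pooled list. The list of replicate 1 gave 32 of 30000 peaks, that of replicate 2 gave 63 of 30000 and that of replicate 3 gave 57 of 29999.

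Clock and Cycle are bHLH-PAS proteins that pair and activate genes through the E-box CACGTG. Among their known targets are per and tim, whose products feed back on Clock and Cycle, and vri and Pdp1. The VRI protein represses Clk and the PDP1 protein activates it, and both bind the same kind of site upstream of Clk, which resembles TTATGTAA or its palindromic form TTACGTAA. Both factors have roles outside the clock as well. VRI acts in cell growth and epidermal development, and PDP1 was first described as an activator of muscle genes. Both genes have several alternative starts.

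The data are ChIP-seq (sequencing of immunoprecipitated chromatin) with an antibody to green fluorescent protein, per the description in the labels. The label for the antibody itself reads cyc, and the description was followed here. The material was whole animals at the white prepupa stage, right after the larva forms its puparium, from a stable transgenic line in which the cyc protein carries GFP at its C terminus. Males and females were pooled, their age is labelled unknown, and the sources used here do not give the time of day. The 3 biological replicates form 1 group and share this line, tag, stage and antibody, so nothing below is a comparison between groups and no test was made. In whole animals, a weak signal in many cells and a strong signal in few cells cannot be told apart.

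Peak signals are as the authors deposited them, on a scale that is not stated, and rank 1 is the strongest peak of a list. The thresholded list ran from 5704.7 down to 110.31, with a median of 211.9, and the strongest pooled peak left out of it had a signal of 110.28. The replicate lists differed in scale: the median signal of the peaks matched to thresholded peaks was 64.0, 67.7 and 86.6 in replicates 1, 2 and 3. Each replicate signal was therefore also divided by that median, and this relative signal is 1 for a middling thresholded peak. Of the thresholded peaks, 68.2% were overlapped by the 7227 strongest peaks of all 3 replicates. Read depth is unknown.

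On dm6, vri lies on 2L from 5288944 to 5311223 on the plus strand and has 3 starts. The most upstream start, of transcript E, is at 5288944. That of transcript C is 10703 bp downstream at 5299647, and the start shared by transcripts A, D and F is 16706 bp downstream at 5305650. All 5 transcripts join at a common exon downstream of these starts, so the first intron of E runs across both other starts. Pdp1 lies on 3L from 7811458 to 7867369 on the minus strand, with 13 transcripts and 4 starts. Transcripts F and O start at 7867369, and B, G, I, K, M, N and P start 11821 bp downstream at 7855548, called here the start of B to P. D and J start 34296 bp downstream at 7833073, and C and L start 39351 bp downstream at 7828018.

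Sequences are given first for the summits that the results turn on: the strongest thresholded summit of each gene and the thresholded summit nearest to a start of each gene. All are read from the plus strand of the Release 6 (dm6) RefSeq sequence, 5′ to 3′, with the summit base and 100 bases on each side. Summits are numbered in the direction of transcription. Capitals mark the E-box CACGTG, the bZIP sites TTACGTAA and TTATGTAA, the repeat GAGAGA, the hexamer GTGCAC and the octamer TATCGATA on either strand. The windows are vri summit 5 (chr2L:5292678-5292878), vri summit 9 (chr2L:5299324-5299524), Pdp1 summit 3 (chr3L:7863736-7863936) and Pdp1 summit 6 (chr3L:7855920-7856120).
vri summit 5, strongest: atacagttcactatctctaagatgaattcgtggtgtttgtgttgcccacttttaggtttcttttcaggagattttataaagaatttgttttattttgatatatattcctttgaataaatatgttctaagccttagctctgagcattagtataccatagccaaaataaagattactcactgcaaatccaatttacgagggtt
vri summit 9, nearest to a start: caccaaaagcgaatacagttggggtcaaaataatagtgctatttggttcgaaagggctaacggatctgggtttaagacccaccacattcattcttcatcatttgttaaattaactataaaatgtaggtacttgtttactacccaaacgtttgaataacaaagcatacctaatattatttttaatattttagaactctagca
Pdp1 summit 3, strongest: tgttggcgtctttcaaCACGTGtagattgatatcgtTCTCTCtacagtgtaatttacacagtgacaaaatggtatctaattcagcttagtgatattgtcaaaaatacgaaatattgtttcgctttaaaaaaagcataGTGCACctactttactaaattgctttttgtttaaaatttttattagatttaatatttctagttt
Pdp1 summit 6, nearest to a start: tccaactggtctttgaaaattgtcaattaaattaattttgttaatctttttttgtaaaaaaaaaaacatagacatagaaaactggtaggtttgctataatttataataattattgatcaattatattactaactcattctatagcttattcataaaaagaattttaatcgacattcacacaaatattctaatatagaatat

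None of these letter strings occurred in the windows of vri summit 5, vri summit 9 or Pdp1 summit 6. The Pdp1 summit 3 window held CACGTG centred 81.5 bp from the summit, GAGAGA on the minus strand (printed as its reverse complement) 61.5 bp away and GTGCAC 39.5 bp away. GC content was 31.3%, 32.8%, 28.4% and 20.4% in the 4 windows in the order printed, against a median of 34.3% over all thresholded summits. Every one of these 4 windows was below that median. Over all thresholded summits of each gene, the median was 31.3% in vri and 28.6% in Pdp1. Some of the others were above the list median, such as vri summit 1 at 36.8% and Pdp1 summit 8 at 35.8%.

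The exact E-boxes lie elsewhere in vri. Its window of 32.28 kb held 4 copies of CACGTG, all in the 6.003 kb between the start of C and the start of A, D and F. A pair of them is separated by 12 bases (chr2L:5303925-5303972), and single copies lie on each side (chr2L:5303340-5303369 and chr2L:5304664-5304693). Capitals mark CACGTG.
vri E-box at 5303352: cacattccacgaCACGTGaccgctccgccg
vri E-box pair at 5303937 and 5303955: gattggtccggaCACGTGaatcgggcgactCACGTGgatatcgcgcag
vri E-box at 5304676: aagtttcaaagcCACGTGatctgtcgattt

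The Pdp1 window of 65.912 kb held 14 copies. Shown are the one within 100 bp of the strongest summit (chr3L:7863740-7863769), the copies nearest to the start of F and O (chr3L:7867506-7867535) and to the start of B to P (chr3L:7855348-7855377), and one upstream of the start of D and J on which a weak replicate summit was centred (chr3L:7835966-7835995).
Pdp1 E-box at 7863752: ggcgtctttcaaCACGTGtagattgatatc
Pdp1 E-box at 7867518: gcagaatgtaatCACGTGgtctttatcttc
Pdp1 E-box at 7855360: gcttggcagtgaCACGTGctttctgtttag
Pdp1 E-box at 7835978: ggagtcattataCACGTGtttgctgcagca

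The vri window carried 9 thresholded summits, 2 upstream of the start of E and 7 in the first intron of E, and none from the start of C onward. Signals ran from 120.7 to 849.9. Over the window this was 2.79 thresholded summits per 10 kb, against 0.540 per 10 kb over the chromosome arms. Of the 24 pooled summits of the window, 37.5% were thresholded, against 24.5% of all pooled peaks. The strongest peaks of all 3 replicates overlapped 6 of the 9, and those of 2 replicates the other 3, against 68.2% supported by all 3 replicates in the whole list. Every one of the 9 had a peak of some rank in each replicate, as did 6514 of the 7227 thresholded peaks.

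**Figure D1:**
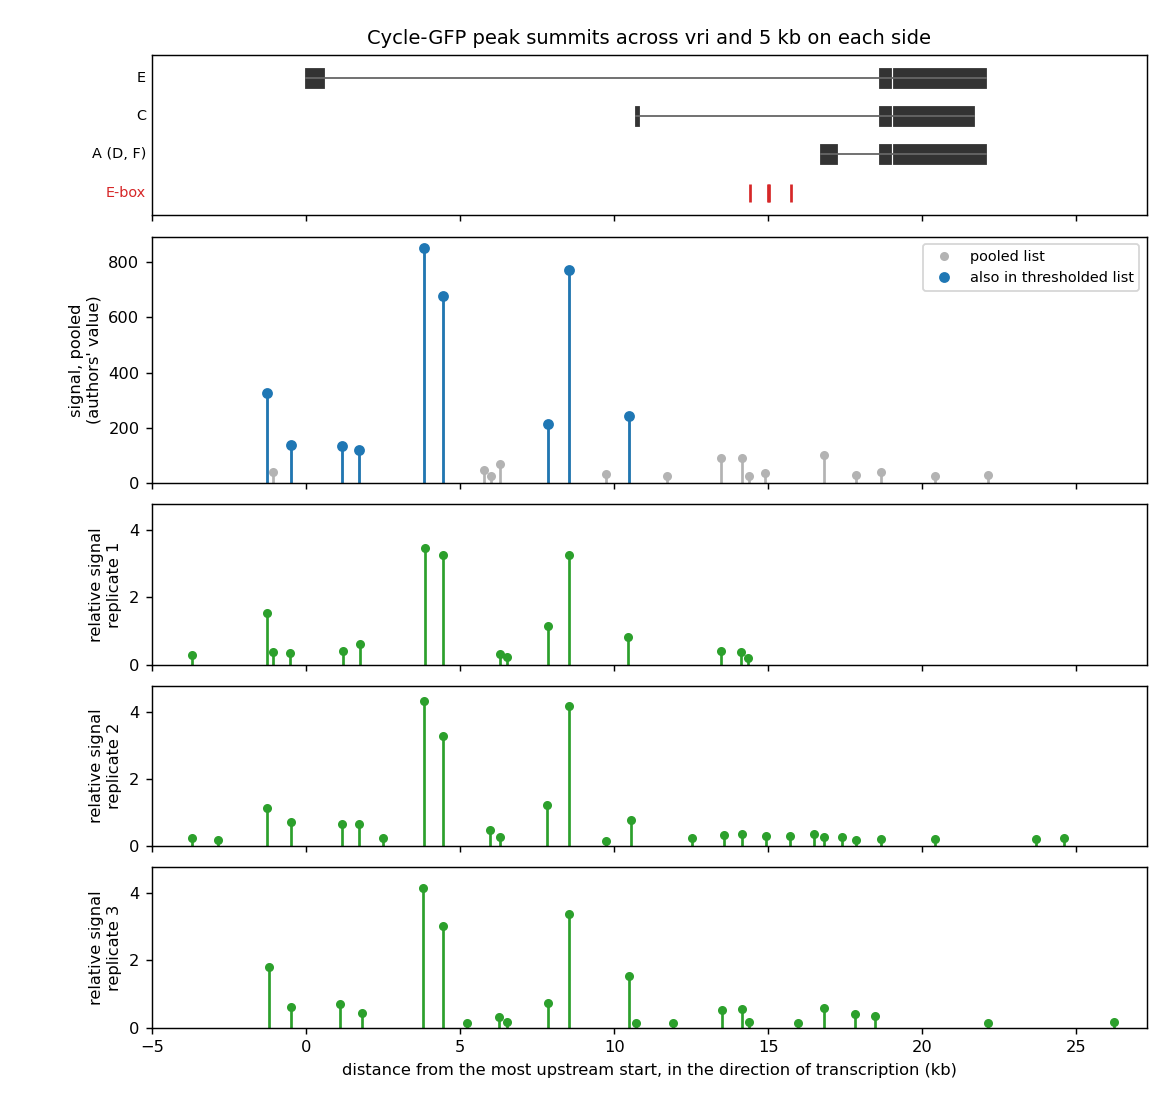
Map of the vri window. The x axis is the distance from the start of transcript E in kb, in the direction of transcription. The top panel shows exons as boxes, 1 row for each start, with CACGTG in red. The other panels show each summit as a stem, with the authors' pooled signal (thresholded peaks in blue, other pooled peaks in grey) and then the relative signal in each replicate. The 3 tallest stems stand at or near 3834, 4452 and 8522 bp in every list, and the 4 E-boxes stand where only low stems occur.

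Summits 5, 6 and 8 were the strong ones. Summit 5, at 5292778 and 3834 bp into the gene, had a pooled signal of 849.9 and rank 386. In replicates 1, 2 and 3 its signal was 221.2, 293.2 and 359.6, at ranks 556, 334 and 311. Its relative signal was 3.46, 4.33 and 4.15, a mean of 3.98 ± 0.463 (SD, n = 3), with the lowest value in replicate 1. The peak spans 400 bp, and the replicate summits lay at most 36 bp from the pooled one.

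Summit 6, at 5293396 and 618 bp further on, had a pooled signal of 677.5 and rank 610. Its replicate signals were 209.3, 222.8 and 260.9, at ranks 611, 586 and 606. The mean relative signal was 3.19 ± 0.155 (SD, n = 3). This peak varied least of the 9, with a coefficient of variation of 4.84% against a median of 22.9% over the 6514 thresholded peaks found in all 3 replicates.

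Summit 8, at 5297466, lies 8522 bp into the gene, 20 bp outside the body of lncRNA:CR45730 (5297486 to 5297928, minus strand), a non-coding RNA gene inside this intron. It had a pooled signal of 773.7 and rank 470. In replicates 1, 2 and 3 the signal was 208.5, 281.3 and 293.1, at ranks 615, 357 and 471, and the relative signal averaged 3.60 ± 0.486 (SD, n = 3). The replicate summits lay within 5 bp of the pooled one. Every replicate value of summits 5, 6 and 8, from 3.01 to 4.33, was above every replicate value of the other 6 summits, whose highest was 1.80. These summits were picked by pooled signal, which derives from the same replicates, so this separation is not independent support. Of all thresholded peaks, 5.16%, 8.16% and 6.50% had means at least as high as summits 5, 6 and 8.

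**Figure D2:**
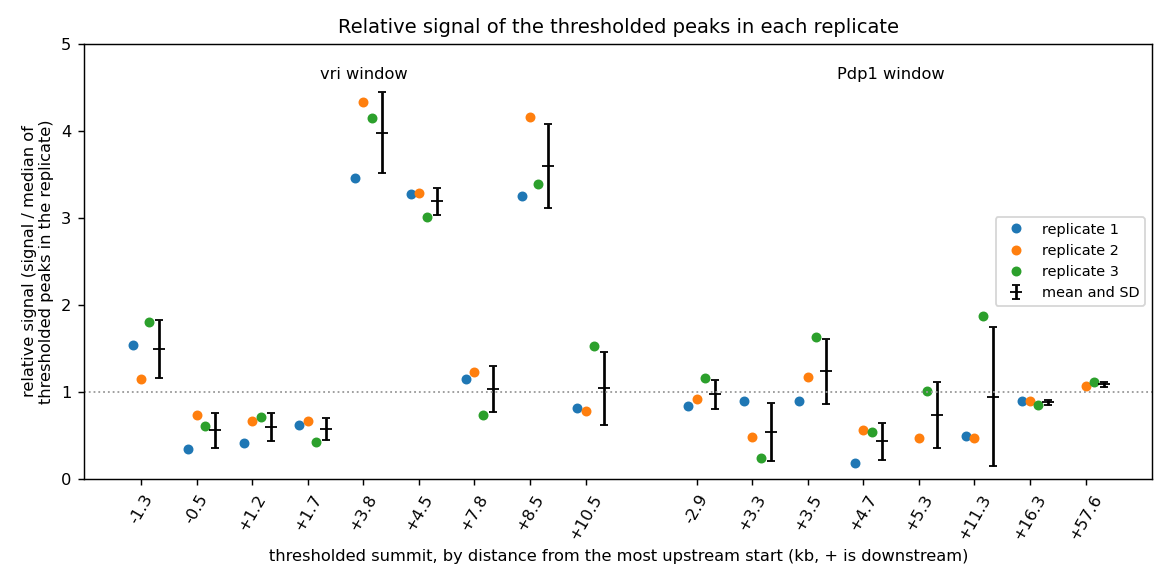
Relative signal of the 17 thresholded peaks in each replicate. The x axis gives each summit by its distance from the most upstream start of its gene in kb, and the y axis the signal divided by the replicate's median over matched thresholded peaks. Points are replicates, and black marks are mean and SD. The vri summits at +3.8, +4.5 and +8.5 kb stand at 3.01 to 4.33, and all Pdp1 values are at or below 1.87. The dotted line marks 1.

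Of the other 6 summits of vri, summits 1, 7 and 9 had pooled signals of 325.2, 213.0 and 241.9, above the list median of 211.9, and summits 2, 3 and 4 were below it. Summit 1, at 5287678 and 1266 bp upstream of the start of E, had replicate signals of 98.3, 77.3 and 156.2 and a mean relative signal of 1.49 ± 0.333 (SD, n = 3). Summit 2, at 5288455 and 489 bp upstream, had replicate signals of 21.8, 49.5 and 52.1 and a mean of 0.558 ± 0.199 (SD, n = 3). Both lie in the body of lncRNA:CR44743 (5287447 to 5288667), a gene on the minus strand that starts close to the start of E, so a position there cannot be given to vri alone. In replicate 1, summit 2 stood at rank 10053, outside the 7227 strongest peaks.

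Summits 3 and 4, at 5290114 and 5290671, had pooled signals of 133.9 and 120.7 and mean relative signals of 0.597 ± 0.159 and 0.571 ± 0.125 (SD, n = 3). These pooled signals were the lowest of the 9. Summit 7, at 5296782, had replicate signals of 73.1, 82.9 and 63.0 and a mean relative signal of 1.03 ± 0.266 (SD, n = 3). Summit 9, at 5299424 and 223 bp upstream of the start of C, had replicate signals of 52.0, 52.7 and 132.2, and its mean was 1.04 ± 0.423 (SD, n = 3). Replicate 3 was the high one at summit 9, and the mean without it was 0.795.

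Below the threshold, the vri window held 15 further pooled summits, of which 6 had a peak in all 3 replicates, 3 in 2 replicates and 6 in 1. The best of them, rank 7732 with a signal of 103.0, lay 89 bp downstream of the start of A, D and F, in their first exon. Downstream of the start of C the strongest were otherwise at 5302410 and 5303089, with signals of 92.8 and 90.5 and ranks 8512 and 8721. The window also overlaps lncRNA:CR44742, CG14024 and Ncoa6, which encodes a nuclear receptor coactivator, and none of these bodies held a thresholded summit of the window. Replicate 2 had 28 summits in the window, replicate 3 had 23 and replicate 1 had 16.

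The Pdp1 window carried 8 thresholded summits, 6 in the gene body and 1 in each flank, with pooled signals from 123.2 to 272.2. Their density was 1.21 per 10 kb, against the 0.540 per 10 kb over the arms. They made up 30.8% of the 26 pooled summits of the window, against 24.5% of all pooled peaks. Only 2 of the 8 were among the 3613 strongest thresholded peaks, against 6 of the 9 in vri. The strongest peaks of all 3 replicates overlapped 4 of the 8, those of 2 replicates overlapped 3, and those of 1 replicate the last. Keeping only peaks overlapped by the strongest peaks of 2 named replicates left 5 of the 8, whichever replicate was left out. In vri it left 6 to 8 of the 9. Summit 2 of Pdp1 is among the 4 and the 5 because it overlaps the same strongest replicate peaks as summit 3. The replicate peaks nearest to summit 2 ranked 3750, 8429 and 15703. Summits 5 and 8 had no peak at all in replicate 1.

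**Figure D3:**
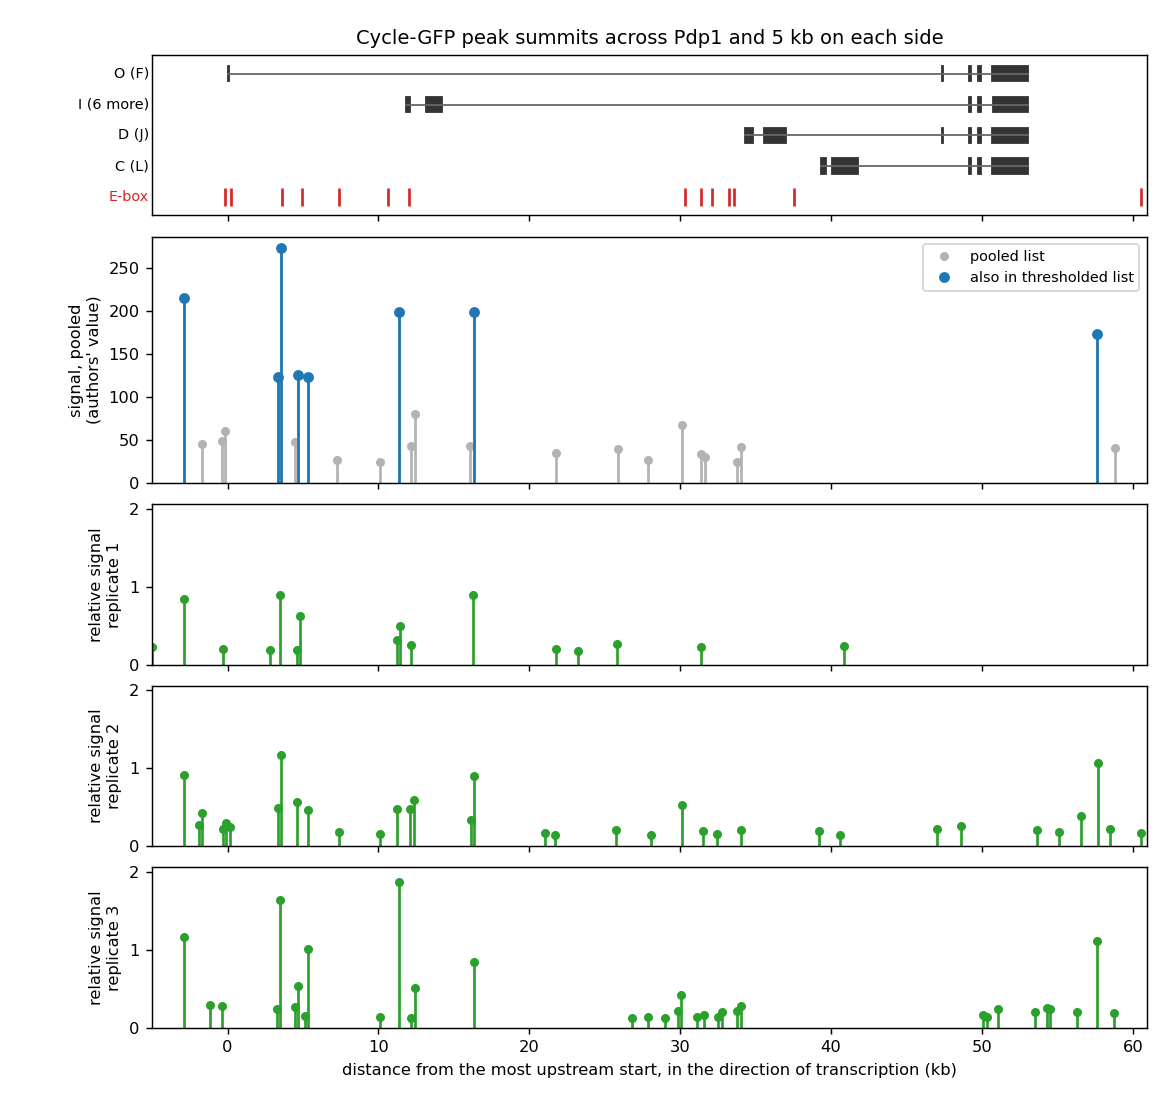
Map of the Pdp1 window. Axes, colours and panels are as in the map of vri, with distance in kb from the start of F and O and 1 row of exons for each of the 4 starts. Thresholded summits stand in the 11.821 kb after the first start, at 16322 bp and in the flanks, and none lies between 16322 bp and the gene end.

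Summit 3 of Pdp1, at 7863836 in the first intron of F and O, was the strongest of the gene, with a pooled signal of 272.2 and rank 2611. In replicates 1, 2 and 3 its signal was 57.4, 79.3 and 141.2, at ranks 3750, 2962 and 1835. The mean relative signal was 1.23 ± 0.371 (SD, n = 3), with the highest value in replicate 3. It lies 3533 bp downstream of the start of F and O and the E-box printed above, at 7863752 to 7863757, lies just outside the peak (7863762 to 7863940) and within 100 bp of its summit. Its neighbour, summit 2 at 7864037, had a pooled signal of 123.3 and replicate signals of 57.4, 32.7 and 20.9, a mean relative signal of 0.541 ± 0.331 (SD, n = 3). In replicate 1 it shared its peak with summit 3, so the pair counts as 1 peak there. Taking the strongest overlapping peak of each replicate gave both summits the same peaks, at a mean of 1.19.

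Summit 6, at 7856020, was the only thresholded summit within 500 bp of a Pdp1 start. It lies 472 bp upstream of the start of B to P and had a pooled signal of 199.1 and rank 3885. Its replicate signals were 31.6, 31.9 and 161.5, at ranks 6762, 8688 and 1487. Replicate 3 set this value apart: relative signals were 0.494, 0.471 and 1.87, a mean of 0.944 ± 0.799 (SD, n = 3), and the mean without replicate 3 was 0.483.

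Summit 7, at 7851047, varied least among the 6 Pdp1 peaks found in all 3 replicates. It lies 16322 bp into the gene, in the first intron of B, F, G, M, N and O and the second intron of I, K and P. Its replicate signals were 57.3, 60.9 and 73.1, and the mean relative signal was 0.880 ± 0.0303 (SD, n = 3), a coefficient of variation of 3.44%. The pooled signal, 199.0, differed little from that of summit 6, while the replicates spread far less.

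Summits 4 and 5, at 7862706 and 7862047 in the first intron of F and O, had pooled signals of 125.0 and 123.2. Summit 4 had replicate signals of 11.9, 38.3 and 46.5 and a mean relative signal of 0.430 ± 0.211 (SD, n = 3). A second peak of replicate 1 that overlaps summit 4 had a signal of 40.3 and rank 5387, against rank 27344 for the matched peak. The support of summit 4 by replicate 1 rests on that second peak. With the strongest overlapping peak of each replicate the mean was 0.557 ± 0.0453. Summit 5 had signals of 31.7 and 87.0 in replicates 2 and 3, a mean relative signal of 0.737 ± 0.380 (SD, n = 2).

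Both flank summits lie in neighbouring genes. Summit 1, at 7870268 and 2899 bp upstream of the start of F and O, is in the body of CG32365 (7869042 to 7894814, plus strand). Its replicate signals were 53.9, 61.9 and 100.2, with a mean relative signal of 0.971 ± 0.166 (SD, n = 3). Summit 8, at 7809744, lies 81 bp from the start of CG32369 (7777105 to 7809825, minus strand) and beyond the end of Pdp1. It had signals of 71.8 and 95.9 in replicates 2 and 3, a mean relative signal of 1.08 ± 0.0335 (SD, n = 2), and no peak in replicate 1.

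The Pdp1 window held 18 further pooled summits below the threshold. All had a peak in at least 1 replicate: 8 in all 3, 8 in 2 and 2 in 1. The best, rank 9706 with a signal of 80.2, lay at 7854975 in the first exon of B, G, M and N. Another at 7837278, with a signal of 67.8 and rank 11288, lay 4205 bp upstream of the start of D and J. From the start of D and J to the gene end the pooled list had no summit at all. The replicate lists did have weak summits there, with best ranks of 18173, 16157 and 14896 in replicates 1, 2 and 3.

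Of the 7 starts, 3 had a thresholded summit within 500 bp, against 22.6% of the 19252 distinct starts of protein-coding genes. These were the starts of E and C in vri and of B to P in Pdp1. The distances were 489, 223 and 472 bp. In vri the start of C had the best rank in the pooled list, 3063, and was covered in every replicate, at ranks 4173, 4947 and 2011. The start of E, at pooled rank 5783, had peaks at ranks 5336 and 6485 in replicates 2 and 3, while the nearest summit of replicate 1 lay 524 bp away. The start of A, D and F was next at rank 7732, with peaks in replicates 2 and 3 at ranks 11018 and 6806. In replicate 2 this was another peak, 208 bp upstream of the start, and the peak at the pooled summit ranked 14945. The replicate ranks at C did not overlap those at the other starts, but C and E were close in replicate 2, at 4947 and 5336. The ranks at E and at A, D and F were close in replicate 3.

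In Pdp1 the order was the start of B to P at pooled rank 3885, the start of F and O at 12521, and the start of D and J at 17283. The start of F and O had weak peaks in all 3 replicates, at ranks 24472, 14040 and 13611. The start of D and J had peaks at ranks 20723 and 13934 in replicates 2 and 3. The start of C and L had a peak in replicate 2 alone, at rank 21954. Across replicates the ranks at the start of B to P, from 1487 to 8586, did not overlap those of the other 3 starts. These ranks did not all belong to the same peak. In replicates 1 and 3 they were those of the summit 6 peak, at 6762 and 1487. In replicate 2, rank 8586 was another peak, with its summit 277 bp downstream of the start. The replicate 2 peak matched to summit 6, at rank 8688, had its summit too far upstream to count. The ranks at the start of F and O overlapped those at the start of D and J.

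**Figure D4:**
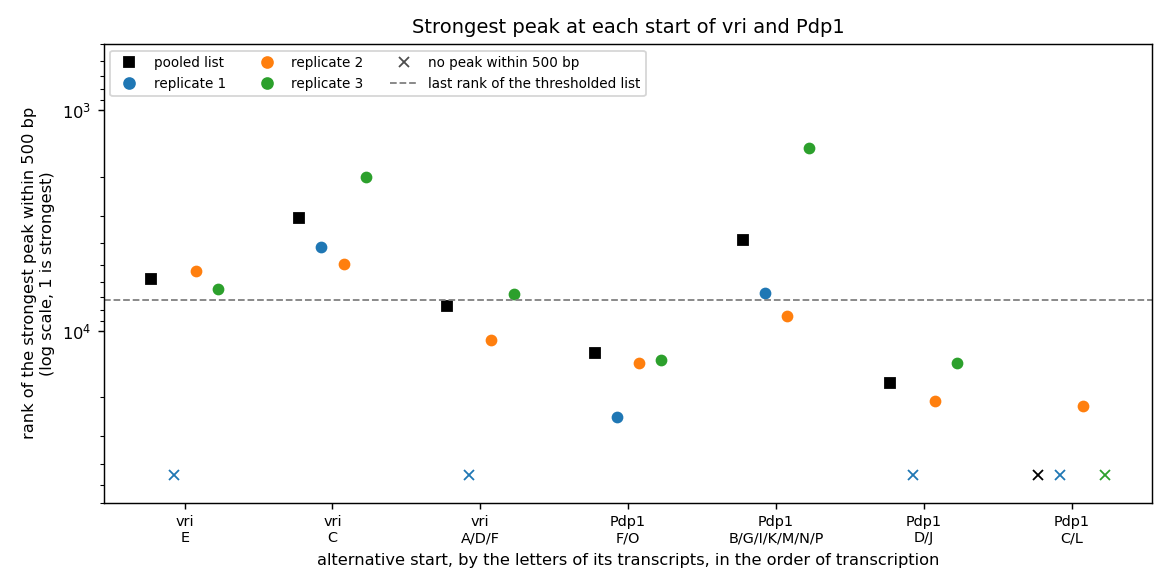
Rank of the strongest peak within 500 bp of each start. The x axis lists the 7 starts by their transcripts, and the y axis gives the rank on a log scale with the strongest at the top. Squares are the pooled list, circles the replicates and crosses lists with no peak there. The dashed line is rank 7227. The starts of E and C in vri and of B to P in Pdp1 lie above it in the pooled list.

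Within 1 kb of a start, both genes had a thresholded summit, as did 28.6% of 13945 protein-coding genes. The counts per window stand high among these genes, in which the median was 1: 88 genes (0.631%) had at least 9 thresholded summits, as vri did, and 127 (0.911%) had at least 8, as Pdp1 did. Longer genes have longer windows, and 911 genes (6.53%) were at least as long as vri and 261 (1.87%) at least as long as Pdp1. The part of length in these counts was not tested. Counting only the 722 strongest thresholded peaks, a limit chosen after the values were seen, vri had 3 in its window and Pdp1 none. At least 3 were found in the windows of 23 genes (0.165%).

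**Figure D5:**
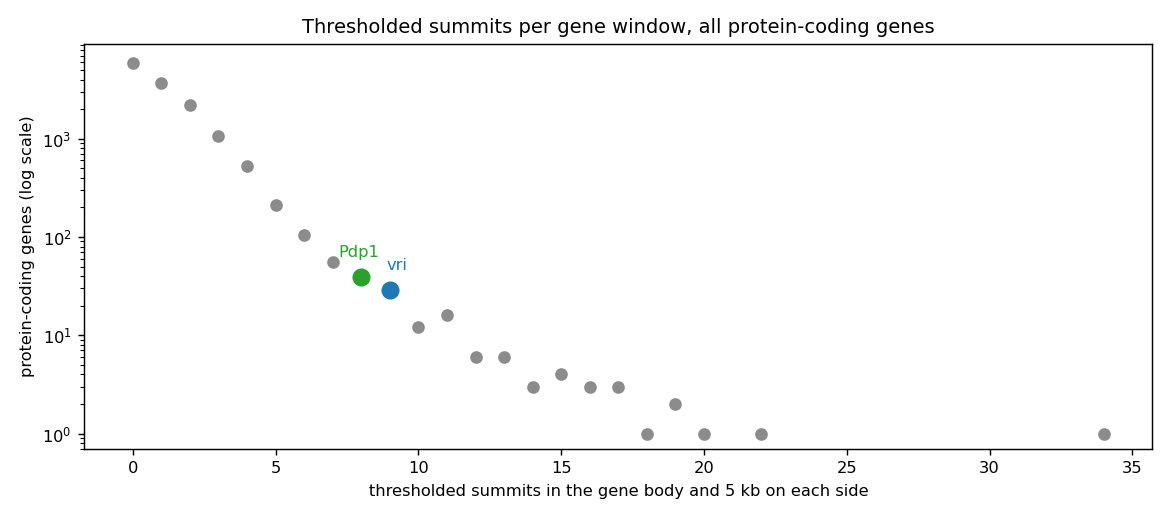
Thresholded summits per gene window for 13945 protein-coding genes. The x axis is the number of thresholded summits in the gene body and 5 kb on each side, and the y axis the number of genes on a log scale. Each point is a count of genes. The coloured points contain Pdp1, at 8 summits, and vri, at 9, and 5954 genes had none.

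Searched within 100 bp of the summit on both strands, CACGTG occurred at none of the 9 thresholded summits of vri and at 1 of the 8 of Pdp1, against 1.63% of all thresholded summits. Any E-box of the form CANNTG, which includes CACGTG, occurred at 4 of 9 and 5 of 8, against 59.8% of all. The sites TTACGTAA and TTATGTAA occurred at none of the 17, against 0.304% and 2.16% of all. TATCGATA also occurred at none, against 3.32%. Outside the 100 bp limit, copies of TTATGTAA at 5292608 and 5292913 lay inside the peak of vri summit 5 (5292592 to 5292991). They were centred 166.5 and 138.5 bp from that summit. GAGAGA and GTGCAC, found at Pdp1 summit 3 only among the 17, occurred at 9.66% and 8.36% of all. These are matches of letters and do not show a site in use.

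Read from the E-boxes, 2 of the 4 in vri and 3 of the 14 in Pdp1 had a pooled summit within 100 bp, against 3.50% of the 16428 copies on the 6 arms. In vri these pooled summits were weak, at ranks 28918 and 20318, and the nearest thresholded summit to each E-box was 3930.5 to 5254.5 bp away. Both windows were denser in pooled summits in general, with 7.43 per 10 kb in vri and 3.94 in Pdp1 against 2.20 over the arms. The arm-wide share is therefore not a matched baseline, and the part of this density was not tested. Replicates 1, 2 and 3 had summits within 100 bp of 1, 3 and 1 of the 4, against 4.55%, 4.09% and 3.48% of the copies on the arms. In replicate 2, both copies of the pair were near the same weak summit, of rank 14303, and the copy at 5304676 near one of rank 13802. Replicate summit densities in the window were 4.96, 8.67 and 7.13 per 10 kb, against 2.24 over the arms in each list. All 4 E-boxes lie upstream of the start of A, D and F, by 971.5 to 2295.5 bp. A copy of TTACGTAA lies among them at 5304409, with no pooled summit within 100 bp.

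In Pdp1 the density of CACGTG was 2.12 per 10 kb, against 1.24 in vri and 1.23 over the arms. The copy near summit 3 was the one with a thresholded summit within 100 bp, against 0.749% of the copies on the arms. The nearest replicate summits lay 170.5, 59.5 and 168.5 bp from it, so that of replicate 2 alone was within 100 bp. The copy 151.5 bp upstream of the start of F and O had a pooled summit 25.5 bp away, at rank 12521. In the 22.475 kb before the start of D and J lie 6 copies, 5 of them 758.5 to 4009.5 bp upstream of that start. Of these 5, the copy at 7835978 had a pooled summit 15.5 bp away at rank 21114, and the replicate 1 summit of rank 20259 was centred on it. Replicates 1, 2 and 3 had summits within 100 bp of 1, 6 and 0 of the 14, against the same arm-wide shares of 4.55%, 4.09% and 3.48%. Their summit densities in this window were 2.43, 5.31 and 5.16 per 10 kb, against 2.24 over the arms in each list.

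The other genes of the same protein class and of the core loop were read from lists. Of 19 other bZIP genes, 12 (63.2%) had one within the same distance of a start, against the 28.6% of all genes above. These were the AP-1 genes kay (Fos) and Jra (Jun), CrebA, a regulator of secretory genes, CrebB, Atf3, Atf-2, crc (the ATF4 gene of the fly), Xbp1 of the unfolded protein response, cnc (the Nrf2 counterpart), its partner maf-S, Irbp18 and REPTOR, which acts under TORC1. The strongest at a start was REPTOR, with a signal of 1393.2 and a relative signal of 6.39 ± 1.00 (SD, n = 3). Irbp18 followed at 4.21 ± 0.527, Atf3 at 2.98 ± 0.442 and cnc at 2.53 ± 0.467 (SD, n = 3 each). At their starts vri, with 1.04 ± 0.423, and Pdp1, with 0.944 ± 0.799 (SD, n = 3 each), stood below these 4. Of the 12, both means stood above Jra at 0.614 ± 0.116, Atf-2 at 0.766 ± 0.125 and crc at 0.802 ± 0.330, and below the others. Among those others, kay at 1.05 and maf-S at 1.06 were close to vri. Replicate 3 was the high one at both vri and Pdp1. Without it their means were 0.795 and 0.483, so their place above Jra, Atf-2 and crc is uncertain.

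The windows of the 19 bZIP genes held 0 to 10 thresholded summits, with a median of 3, and kay alone reached 8 or more, with 10. In the core loop, Clk, per, tim and cwo had no thresholded summit in their windows, as did 5954 of the 13945 protein-coding genes. cyc itself had 2, neither within 1 kb of its start, and cry, the blue light photoreceptor of the clock, had 1. Near a start, at most 1 kb away, that leaves cry as 1 of these 6 genes with a thresholded summit, against 28.6% of all genes. Clk, the gene on which VRI and PDP1 act, lies on 3L at 7763233 to 7775603, on the far side of CG32369 from Pdp1, and no summit of the pooled list lay in its window. The windows of per, tim and cwo did hold pooled summits below the threshold, 3, 5 and 7 of them.

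The window limits cut between summits as follows. Nearest outside the vri window were thresholded summits 5393 bp and 9501 bp beyond its ends, with signals of 131.5 and 495.9, and nearest inside were those 3734 bp and 16799 bp from the ends, with signals of 325.2 and 241.9. For Pdp1 the nearest outside lay 3791 bp beyond the upstream end, with a signal of 253.5, and the nearest inside 2101 bp from it, with 214.9. At the downstream end these distances were 14090 bp, with a signal of 388.3, and 3286 bp, with 172.8.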

How the data were processed

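ChIP-seq peak lists on dm6 were used: 1 list for each of 3 replicates, a pooled list and 1 thresholded by irreproducible discovery rate. All were made against a control alignment, per the texts deposited with them, and the control was not analysed here. Which aligner and peak caller made them is not given in the sources used here. Signal values are those the authors deposited, with no read depth, and were compared only within a list or after division by a median of the same list. The thresholded list held exactly the 7227 strongest pooled peaks. Summits are the deposited offsets, and 54.5% of thresholded ones lie at the middle of the peak.

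In each replicate a thresholded peak took the signal of the peak overlapping it by at least 1 bp whose summit was nearest. Gene models were from Ensembl release 115 (build 6.54) and sequence from RefSeq Release 6. Motifs were searched within 100 bp of the summit, and the search was tested on simulated data. With 1 group, no comparison was tested. Nothing in the labels beyond the replicate number says how the replicates were raised, so SDs may be partly technical.

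The genes named were set by rule: vri, Pdp1, all genes overlapping their windows, the bZIP genes with a summit within 1 kb of a start and the core loop genes. Members, lists and motifs were chosen with earlier results of these data known. Alternatives, 49 in all, varied the flank, the distances, the stringency, the matching and the replicates. The lists on dm3 were not used. Computation used Python 3.11.15, numpy 2.4.6, pandas 2.3.3 and matplotlib 3.10.9.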

Additional observations from a re-analysis of the deposited data

How the results depend on the processing

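Of 49 alternatives, 42 left the value within 1.5 times the reported count or within 1 SD, and 7 moved it. Some of the 42 were fixed in advance and say nothing about stability. Leaving out 1 of 3 replicates cannot shift a mean relative signal by 1 SD. A motif limit of 50 bp cannot raise the vri count of CACGTG above 0. Keeping the 3613 strongest thresholded peaks left 2 summits in the Pdp1 window instead of 8, and 6 in the vri window. Leaving out a replicate left 5 to 5 thresholded summits in Pdp1 and 6 to 8 in vri, and by construction this setting can only remove peaks. Within 250 bp, 1 start of vri in place of 2 and 0 starts of Pdp1 in place of 1 had a thresholded summit. Within 50 bp, 0 summits of Pdp1 in place of 1 held CACGTG. The relative signal of the strongest peak ran from 3.80 to 4.24 in vri and from 1.03 to 1.40 in Pdp1 without each replicate in turn. Of the bZIP list, 11 genes within 500 bp, 16 within 5 kb and 10 with a summit in the gene body compared with 12 as reported.

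No paired analysis was possible because the 3 replicates form 1 group and no result comes from a test. Read depth is unknown, so a start or E-box with no peak in a list cannot be called free of signal.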
